A study of Mus musculus with 6 samples.

Results

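The carboxylesterases of the mouse intestine were followed through 10 genes chosen by symbol, Ces1d, Ces1e, Ces1f, Ces1g, Ces2a, Ces2b, Ces2c, Ces2e, Ces2g and Ces3b, out of 37991 gene identifiers in the count tables. Carboxylesterases are serine hydrolases that sit in the lumen of the endoplasmic reticulum and cut ester and amide bonds. In the gut and liver they hydrolyse drugs and prodrugs as well as triacylglycerols, diacylglycerols and other lipid esters, and in absorptive epithelium they take part in handling dietary fat. In the mouse the family expanded into gene clusters, whereas humans have only a few members, so mouse and human genes do not pair off simply.

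RNA was sequenced from 3 serrated polyps of the cecum and from the surrounding normal distal cecum of the same 3 HBUS mice, numbered 1119, 1192 and 1199, collected at 60 weeks of age. In HBUS mice the intestinal epithelium expresses, as transgenes, HB-EGF (a growth factor) and US28 (a chemokine receptor of viral origin), and the surrounding tissue carries both too, so neither tissue represents a mouse without the transgenes. Each library is 1 piece of whole tissue from 1 animal. Total counts were 6632645 to 8553952 in polyps and 7496143 to 13350119 in surrounding tissue, of which mitochondrial rRNA took 46.35% to 62.04% and 57.27% to 75.29%. Without it, 2900362 to 4589500 counts were left in polyps and 1852065 to 5096066 in surrounding tissue. In such bulk tissue, fewer cells of a type and less RNA per cell cannot be told apart. Library totals vary, so levels are given as CPM, each count divided by a library size that TMM adjusts for composition.

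All 20 carboxylesterase genes of the annotation lie on mouse chromosome 8, with Ces1a to Ces1h and Ces5a next to each other and the Ces2, Ces3 and Ces4 genes in a second row. Upstream sequence is shown because the Ces2 members are close neighbours in this second row and were read out in the same libraries. Below are the 100 bases before the annotated start of 4 Ces2 members and of Ces1g, read 5′ to 3′ from RefSeq promoters on build GRCm38.p6, in the order Ces2a (chr8:104733903-104734002, plus strand), Ces2c (chr8:104846968-104847067, plus), Ces2e (chr8:104926160-104926259, plus), Ces2g (chr8:104961618-104961717, plus) and Ces1g (chr8:93337210-93337309, minus). Capitals mark GAACTT in the Ces2 genes and TTTATA, which is TATAAA on the other strand, in Ces1g.
Ces2a: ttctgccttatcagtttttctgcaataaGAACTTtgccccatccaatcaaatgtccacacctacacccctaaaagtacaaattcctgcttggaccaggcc
Ces2c: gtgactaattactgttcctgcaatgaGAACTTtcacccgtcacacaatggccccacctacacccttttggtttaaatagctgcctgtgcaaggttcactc
Ces2e: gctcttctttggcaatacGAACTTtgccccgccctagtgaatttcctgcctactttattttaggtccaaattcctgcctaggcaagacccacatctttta
Ces2g: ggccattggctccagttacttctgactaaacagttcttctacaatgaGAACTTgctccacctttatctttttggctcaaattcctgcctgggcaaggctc
Ces1g: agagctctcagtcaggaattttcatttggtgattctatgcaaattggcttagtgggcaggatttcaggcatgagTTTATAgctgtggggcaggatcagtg

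The run GAACTT began 72 bases before the start in Ces2a, 74 in Ces2c, 82 in Ces2e and 53 in Ces2g, in the sense direction in each. Searched on both strands, it occurred in the 250 upstream bases of 11.5% of 32851 RefSeq promoter windows. In Ces2a and Ces2e it runs on into ACTTTGC, the reverse complement of GCAAAGT, with which it overlaps; GCAAAGT in either direction was found in 3.11% of windows. Ces2g held this longer run 117 bases before its start, outside the stretch shown, and the Ces2c window did not hold it. Outside these members GAACTT was found in the windows of Ces1b, Ces1h and Ces2h, and GCAAAGT in that of Ces2f. TATAAA in either direction, as in Ces1g, was present in 12.4% of windows, among them those of Ces3b and Ces1h. GAACTT and GCAAAGT were picked after the sequences had been read, and a match describes letters only. Windows were matched for 7 of the 10 genes, with Ces1d, Ces1f and Ces2b unmatched.

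Ces2 transcripts made up most of the carboxylesterase RNA in both tissues. Counted per kilobase of exon, which allows genes of different length to be compared, the Ces2 genes held 90.6%, 89.5% and 93.1% of the carboxylesterase signal in polyps of mice 1119, 1192 and 1199, and 89.8%, 85.7% and 92.7% in surrounding tissue. In polyps the order of mean levels was Ces2e (67.7 ± 19.8 CPM per kb, SD, n = 3), Ces2a (39.4 ± 43.6), Ces2c (25.6 ± 6.16), Ces1g (5.40 ± 4.62), Ces1f (4.69 ± 2.33), Ces1d (2.96 ± 2.86), Ces2g (1.88 ± 0.431), Ces2b (0.915 ± 0.505), Ces1e (0.763 ± 0.442) and Ces3b (0.269 ± 0.351). In surrounding tissue the order was Ces2a (95.8 ± 42.0 CPM per kb), Ces2e (93.2 ± 16.0), Ces2c (47.8 ± 7.29), Ces1g (17.9 ± 13.0), Ces1f (5.87 ± 1.56), Ces1d (5.26 ± 2.22), Ces2g (1.73 ± 0.514), Ces2b (1.26 ± 0.396) and Ces1e (0.888 ± 0.235), with Ces3b at no counts. Neighbours in the polyp order overlapped over the 3 polyps except Ces2c above Ces1g and Ces2g above Ces2b. In surrounding tissue the steps without overlap were Ces2e above Ces2c, Ces2c above Ces1g, Ces1d above Ces2g, and Ces1e above Ces3b. Ranked per kilobase by mean level among 20074 genes, Ces2e stood at 177 in polyps and 113 in surrounding tissue, and Ces2a at 334 in polyps and 108 in surrounding tissue.

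**Figure D1:**
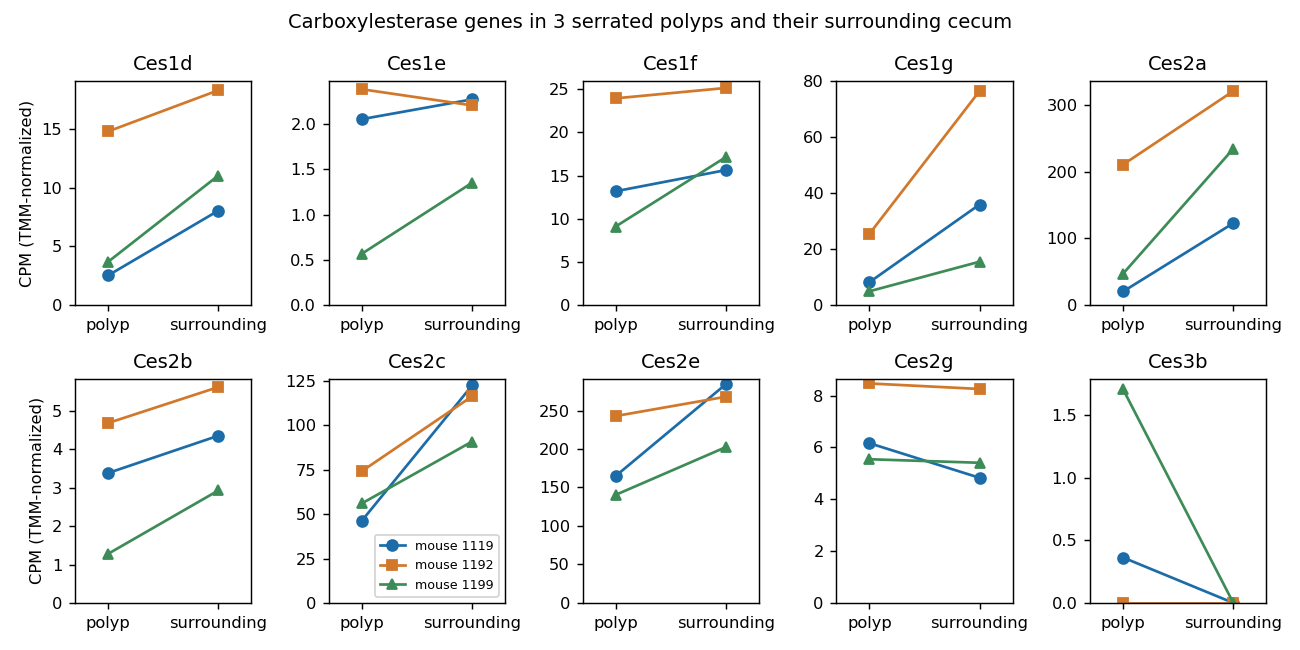
CPM of the 10 carboxylesterase genes on linear axes that start at 0, with serrated polyps on the left and surrounding tissue on the right of each panel, and lines joining the samples of 1 mouse. Of the 10 genes, only Ces2c has its 3 polyps (46.3 to 74.2 CPM) all under its 3 surrounding samples (90.8 to 122.4 CPM). Mouse 1192 is the highest of the polyps for 9 genes.

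Two-sided edgeR quasi-likelihood tests with the mouse as a block compared polyps with surrounding tissue over 10960 genes, and genes with a Benjamini-Hochberg adjusted p under 0.05 were called. Of the 10 carboxylesterases, 9 passed the filter on low counts, 2 fell (Ces1g and Ces2c) and 0 rose, against 1.04% of all tested genes called lower and 1.72% called higher. At an unadjusted p under 0.05, 0 members were higher and 5 lower, beside 1596 of all 10960 tested genes in either direction. DESeq2 and limma-voom called 0 members higher and 3 lower each. Over all 10960 genes DESeq2 called 326 higher and 215 lower, and limma-voom 252 higher and 159 lower. The median log2 fold change of the 9 genes was -0.56, with 8 below 0, beside -0.02 over all tested genes, of which 51.6% were below 0.

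Ces1g, a lipid hydrolase known from mouse liver and intestine, where it acts on the lipid load of secreted lipoproteins (ENSMUSG00000057074), had the smallest p of the family. Its level was 8.22, 25.5 and 4.98 CPM in polyps of mice 1119, 1192 and 1199, against 36.0, 76.5 and 15.6 CPM in surrounding tissue. Each polyp was below the tissue around it, but the ranges overlapped because the polyp of mouse 1192 exceeded the surrounding tissue of mouse 1199. Ces1g fell by 1.79 ± 0.21 on the log2 scale (SE, 95% interval -2.26 to -1.31, adjusted p = 0.0091, edgeR), and the within-mouse differences were -2.10, -1.58 and -1.60. The gene was called without any 1 of the mice, at log2 fold changes of -1.61 to -1.95. The call ended when the mouse block was left out (-1.72, adjusted p = 0.501) and when the change was tested against a log2 fold change of 1 (adjusted p = 0.191).

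Ces2c, an intestinal and hepatic enzyme that hydrolyses acylglycerols (ENSMUSG00000061825), was the other gene that fell. Polyps had 46.3, 74.2 and 56.0 CPM and surrounding tissue 122.4, 116.3 and 90.8 CPM in mice 1119, 1192 and 1199. All 3 polyps were lower than all 3 surrounding samples, and mouse 1119 had both the lowest polyp and the highest surrounding value. How many of all tested genes separate in this way was not counted, so separation is given as a description, here and below. Ces2c fell by 0.91 ± 0.18 on the log2 scale (95% interval -1.33 to -0.50, adjusted p = 0.0379, edgeR). The call was lost without mouse 1119 (log2 fold change -0.68, adjusted p = 0.163), without mouse 1199 (-1.04, adjusted p = 0.142), without the mouse block (adjusted p = 0.0924), with spread estimates without robustness (adjusted p = 0.055) and against a log2 fold change of 1 (adjusted p = 1). Part of this transcript is shared with Ces2b. The longest transcripts, 1970 bases in Ces2c and 3408 in Ces2b, had 91.6% identity over aligned bases, with gaps left out. Of the 50-base words of Ces2c, 4.40% also occur in Ces2b, 0.934% in Ces2e, 0.311% in Ces2g and 0.133% in Ces2a. Reads from these words cannot be told apart by sequence.

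Ces2a, a neighbouring gene of the same subfamily (ENSMUSG00000055730), had the largest fitted difference but did not pass the test. It had 20.6, 210.6 and 47.4 CPM in polyps, against 122.8, 320.6 and 234.2 CPM in surrounding tissue. The polyps of mice 1119 and 1199 were far under every surrounding sample, and the polyp of mouse 1192 lay between the surrounding samples. The log2 fold change was -1.82 ± 0.42 (95% interval -2.87 to -0.76, adjusted p = 0.118, edgeR), with -2.57, -0.61 and -2.30 in mice 1119, 1192 and 1199. Without mouse 1192 the gene passed at -2.48 (adjusted p = 0.00106). It also passed with DESeq2 (-1.85, adjusted p = 0.0343), limma-voom (-1.57, adjusted p = 0.0309) and spread estimates without robustness (adjusted p = 0.0473), so its call depends on the method.

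**Figure D2:**
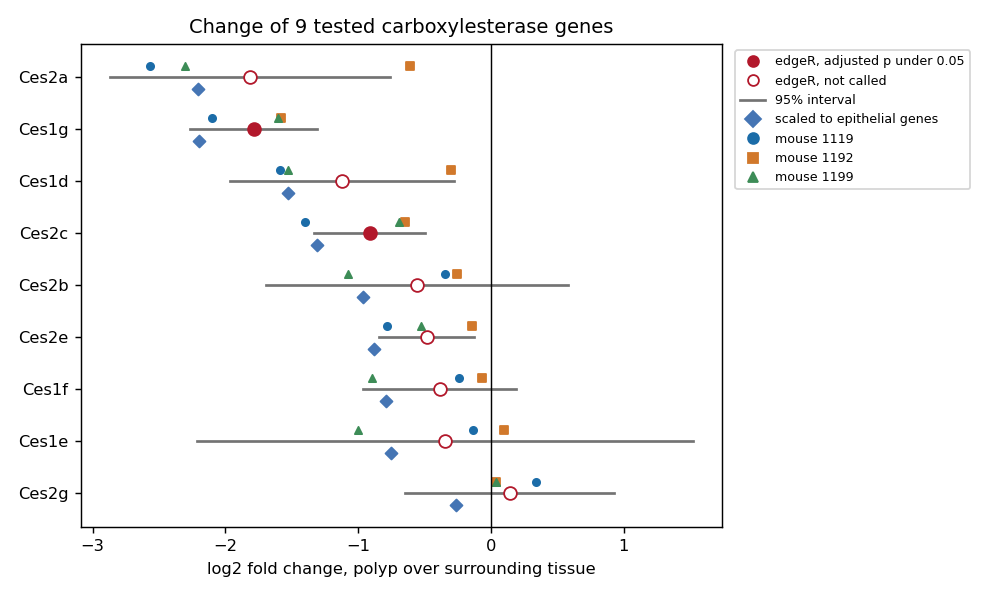
Log2 fold change, polyp over surrounding tissue, of the 9 tested carboxylesterases with 95% intervals as lines; filled circles are genes called by edgeR (Ces1g and Ces2c), small points are the differences within each mouse, and diamonds are values scaled to epithelial genes. The orange square of mouse 1192 is at -0.61 for Ces2a, against -2.57 and -2.30 in the other mice, whereas Ces1g lies at or below -1.58 in all 3.

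Ces2e, the most abundant member in polyps, had 164.9, 242.8 and 140.4 CPM there and 284.1, 267.9 and 202.4 CPM in surrounding tissue. It was lower in each polyp than in its own surrounding tissue, while the polyp of mouse 1192 exceeded the surrounding tissue of mouse 1199. The log2 fold change of -0.48 ± 0.16 did not pass (95% interval -0.84 to -0.13, adjusted p = 0.183). Ces1d, known as a triacylglycerol hydrolase of mouse liver and fat tissue, had 2.54, 14.8 and 3.70 CPM in polyps and 8.05, 18.3 and 11.0 CPM in surrounding tissue. Mouse 1192 again had the highest value in each tissue, and the groups overlapped. Its log2 fold change was -1.12 ± 0.37 (adjusted p = 0.192).

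The remaining 4 tested genes had intervals that included 0. Ces1f had 13.2, 23.9 and 9.10 CPM in polyps and 15.6, 25.1 and 17.1 CPM in surrounding tissue (log2 fold change -0.39, 95% interval -0.97 to 0.19, adjusted p = 0.564). Ces2b, close in sequence to Ces2c, ranged from 1.28 to 4.69 CPM in polyps and from 2.93 to 5.63 CPM in surrounding tissue (log2 fold change -0.56, interval -1.70 to 0.58, adjusted p = 0.687). Ces1e encodes egasyn, which holds β-glucuronidase in the endoplasmic reticulum, and rested on 50 counts in polyps and 61 in surrounding tissue in all. Its log2 fold change of -0.35 had an interval of -2.22 to 1.52 (adjusted p = 0.892), which leaves changes in either direction within the error. Gusb, the gene of β-glucuronidase, had 3.51, 17.2 and 9.81 CPM in polyps and 6.06, 4.98 and 6.54 CPM in surrounding tissue (log2 fold change 0.58, adjusted p = 0.673).

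Ces2g was the only tested member with a positive fitted value. It had 51, 103 and 39 counts in polyps of mice 1119, 1192 and 1199 and 51, 116 and 24 counts in surrounding tissue, and its log2 fold change was 0.14 ± 0.35 (interval -0.65 to 0.93, adjusted p = 0.893). Polyp and surrounding samples lay in the same range, from 4.83 to 8.47 CPM. Ces3b, a gene known from liver, had 3, 0 and 12 counts in the polyps and 0 counts in each surrounding sample, too few to be tested; 0 counts allow up to 0.307, 0.225 and 0.400 CPM of the raw library totals there.

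The other 10 carboxylesterase genes of the mouse were near or at the detection limit and none was tested. Ces2d-ps, a pseudogene within the Ces2 row, had 7, 1 and 3 counts in polyps and 0, 16 and 1 in surrounding tissue. Ces1c, which is secreted into mouse plasma, had 8 counts, all in the polyp of mouse 1119. Ces1h had 3 counts in surrounding tissue, Ces4a had 2 there, and Ces2f and Ces3a had 1 count each, in surrounding tissue and in a polyp. Ces1a, Ces1b, Ces2h and Ces5a had 0 counts in all 6 libraries, a floor of 0.225 to 0.452 CPM of the raw library totals. These floors are not on the adjusted library sizes behind the CPM values. Floors of this kind cover counting error only.

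Summed over the 10 genes, polyps had 267.7, 607.4 and 270.6 CPM, against 600.5, 840.9 and 580.9 CPM in surrounding tissue. The sum was lower in all 3 polyps than in their own surroundings, and the polyp of mouse 1192 was above the surrounding samples of the other 2 mice. The Ces1 genes together had 26.0, 66.6 and 18.4 CPM in polyps and 61.9, 122.2 and 45.1 CPM in surrounding tissue. The mix of transcripts differed as well. Ces2e made up 59.7%, 37.4% and 49.2% of the family's signal per kilobase in polyps and 44.3%, 29.3% and 32.2% in surrounding tissue. Ces2a made up 8.52%, 37.1% and 19.0% in polyps and 21.9%, 40.2% and 42.6% in surrounding tissue. In each mouse, then, the Ces2e share was higher and the Ces2a share lower in the polyp.

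**Figure D3:**
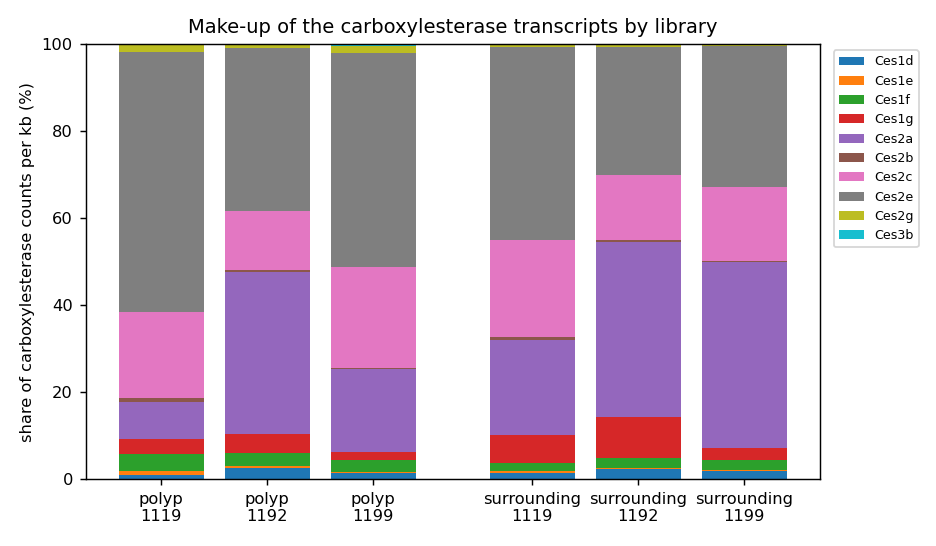
Stacked shares, in percent, of each carboxylesterase gene in the family's counts per kilobase, with the 3 polyps on the left and the 3 surrounding samples on the right. Ces2e takes 37.4% to 59.7% of the polyp bars and 29.3% to 44.3% of the surrounding bars, and the Ces2a part is smallest, 8.52%, in the polyp of mouse 1119.

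Ratios of 2 members within a library do not depend on how libraries are scaled. The 36 ratios of the 9 tested members share genes, so they are not independent of each other and partly restate the fold changes above. For 1 Ces2e count there were 0.125, 0.868 and 0.337 Ces2a counts in polyps and 0.432, 1.20 and 1.16 in surrounding tissue, a log2 difference of -1.79, -0.46 and -1.78. Ces1g to Ces2e was 0.0499, 0.105 and 0.0355 in polyps and 0.127, 0.286 and 0.0768 in surrounding tissue, which is lower in every polyp than in its own surroundings. Ces2c to Ces2e was 0.281, 0.306 and 0.399 in polyps and 0.431, 0.434 and 0.449 in surrounding tissue, without overlap. Within the Ces1 row, Ces1f to Ces1g was 1.60, 0.939 and 1.83 in polyps and 0.434, 0.328 and 1.10 in surrounding tissue, so the balance between these neighbours was higher for Ces1f in each polyp. Ces2e to Ces2g was 26.7, 28.7 and 25.3 in polyps and 58.8, 32.4 and 37.4 in surrounding tissue, also without overlap. Each of these 5 ratios moved the same way in all 3 mice and had p = 0.25 in a two-sided exact sign-flip permutation test, the smallest p that 3 mice allow; 24 of the 36 ratios computed did so, and the Benjamini-Hochberg adjusted value over all 36 was 0.375.

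Summed markers of several cell types also differed between the tissues. The calls below stand beside 1.04% of all tested genes called lower and 1.72% called higher by edgeR. DESeq2 called 215 lower and 326 higher of 10960. Summed CPM of 25 general epithelial genes was 8347 to 10370 in polyps and 5759 to 8559 in surrounding tissue. The 4 genes called higher by edgeR were Krt8, Krt18, Krt19 and Cldn4, and Krt8 alone averaged 2189 CPM in polyps and 1359 around them. The median log2 fold change of the 25 was 0.08, with 16 above and 9 below 0. Of 24 absorptive colonocyte genes 7 were called lower, with sums of 11320, 16120 and 16600 CPM in polyps of mice 1119, 1192 and 1199 and 15470, 14760 and 21800 CPM in surrounding tissue. In mouse 1192 this sum was higher in the polyp, where Car1 was at 7755 CPM, against 6587 around it, and Clca4a at 3292 against 1471. Each of the 7 called genes was lower in that polyp, among them Slc26a3 at 138.1 against 445.1 CPM. Of 12 goblet cell genes 3 were called lower, with sums of 1430 to 2828 CPM in polyps and 2861 to 3671 CPM in surrounding tissue. Of 15 tested smooth muscle genes 2 were called lower by edgeR and 7 by DESeq2, with sums of 233.7 to 315.6 CPM in polyps and 440.2 to 501.7 CPM in surrounding tissue. Of 14 fibroblast genes 7 were called higher, with sums of 348.6 to 796 CPM in polyps and 108 to 230.4 CPM in surrounding tissue. Neutrophil genes summed to 41.0 to 71.8 CPM in polyps and 3.56 to 27.5 CPM in surrounding tissue. Of the 4 tested, 0 were called by edgeR and 2 were called higher by DESeq2. EdgeR also called 0 of 10 tested macrophage and monocyte genes, 0 of 7 endothelial genes and 0 of 3 lymphocyte genes. What part these marker differences have in the carboxylesterase values was not tested. When libraries were scaled to the summed epithelial genes, the median of all genes moved to -0.42 on the log2 scale, and 5 carboxylesterases were called lower: Ces1g (-2.20), Ces2a (-2.21), Ces2c (-1.31), Ces1d (-1.53) and Ces2e (-0.88). The sum used for this scaling includes the 4 epithelial genes called higher in polyps. The share of lower genes among all calls was 83.1% under it, against 37.6% under TMM. Ces2g turned to -0.26 under it (adjusted p = 0.661), and relative to the median gene it stayed above.

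Summed adipocyte genes were also lower in each polyp than in its own surroundings; fat cells are known to express Ces1d and Ces1f. The 14 adipocyte genes summed to 12.0, 52.0 and 22.3 CPM in polyps and 53.1, 100.4 and 37.6 CPM in surrounding tissue. Of the 7 tested, 1 (Pck1) was called lower, beside 1.04% of all tested genes. Mouse 1192 was the highest in both tissues, as it was for Ces1d, Ces1f and Ces1g, and also for Ces2a, Ces2b and Ces2g. For Ces1e the highest surrounding value was that of mouse 1119. Adipoq, a defining gene of fat cells, had 0, 20 and 0 counts in polyps and 11, 45 and 0 in surrounding tissue. Plin1 had 0, 11 and 0 counts in polyps and 3, 26 and 0 in surrounding tissue, and Ucp1 had 0 in every library. In mouse 1199, where Adipoq and Plin1 were at 0, other adipocyte genes had counts. Car3 was at 1.42 CPM in the polyp and 8.34 CPM in surrounding tissue. Fabp4 was at 1.42 and 5.41 CPM, and Pck1 at 2.99 and 9.47 CPM. Cidec and Lipe went the other way. Cidec was at 12.5 CPM in that polyp and 10.4 CPM around it, and Lipe at 2.275 and 1.578 CPM. What part fat cells have in the Ces1 values was not tested in any of the mice. Liver and pancreas are further sites of these enzymes. Of 10 hepatocyte genes 2 (Fga and Fgb) had 0 counts in every library, Alb had 5 counts in the surrounding tissue of mouse 1119 and 0 elsewhere, and Tat had 82, 147 and 99 counts in polyps and 361, 112 and 60 in surrounding tissue. The hepatocyte genes summed to 11.9 to 16.4 CPM in polyps and 13.2 to 39.8 CPM in surrounding tissue. Of 8 pancreatic acinar genes 5 had 0 counts in every library, while Cela1 had 32, 41 and 18 counts in polyps and 55, 107 and 14 in surrounding tissue. The part of such cells was not tested either.

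**Figure D4:**
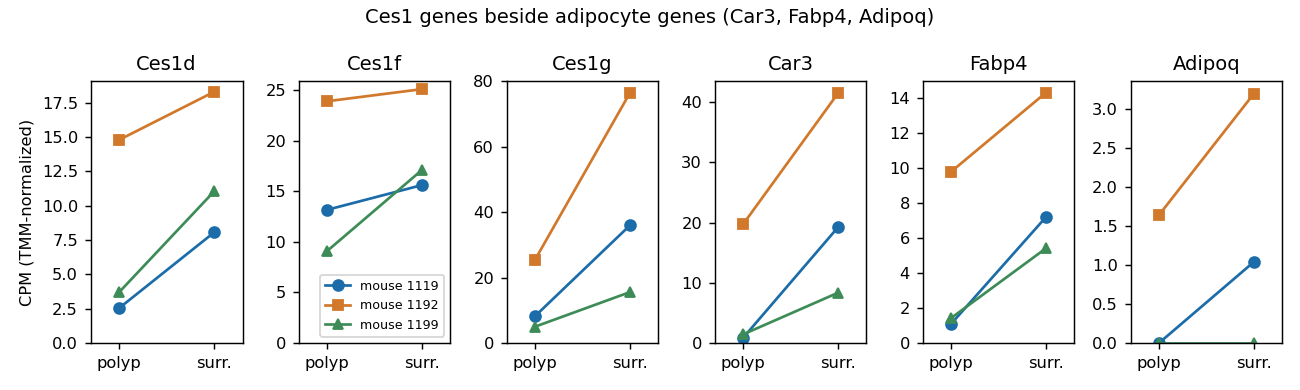
CPM, on linear axes from 0, of 3 Ces1 genes and of the adipocyte genes Car3, Fabp4 and Adipoq in polyps (left of each panel) and surrounding tissue (right), with lines joining the samples of a mouse. Mouse 1192 has the highest values in every panel. In mouse 1199 Adipoq is at 0 in both tissues, while Car3 is 1.42 CPM in the polyp and 8.34 CPM around it. Fabp4 is 1.42 CPM and 5.41 CPM there. Cidec, an adipocyte gene not drawn, is 12.5 CPM in that polyp and 10.4 CPM around it.

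Genes whose log2 CPM followed the 2 called members most closely over the 6 libraries were picked from 5629 tested genes, as a description of samples that share tissue and animal. For Ces1g these included Nlrp6, an innate immune sensor of gut epithelium (r = 0.996), and Ndrg3 (r = 0.991), and 129 genes reached 0.9 or more. For Ces2c they included the membrane carbonic anhydrase Car4 (r = 0.990) and Mau2, a cohesin loader (r = 0.985), and 139 genes reached 0.9 or more. Among the members themselves Ces1d and Ces2a were closest (r = 0.982) and Ces2c and Ces2g farthest (r = 0.010).

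Of 16 tested neutral lipid hydrolases outside the family, 0 were called in either direction by edgeR, with 1 higher and 6 lower at an unadjusted p under 0.05 and a median log2 fold change of -0.14; DESeq2 called 1 lower and limma-voom 2. Of 20 other ester hydrolases 0 were called by edgeR, DESeq2 or limma-voom, with 2 higher and 0 lower at an unadjusted p under 0.05 and a median of 0.02. Of 18 nuclear receptors and other regulators known to act on carboxylesterase genes 0 were called by any of the 3 tools, with 0 higher and 2 lower at an unadjusted p under 0.05 and a median of -0.14. Of 7 endoplasmic reticulum retention and partner genes 0 were called by any of the 3 tools. At an unadjusted p under 0.05, 2 of them were higher and 0 lower, and their median was 0.27. Scaling to epithelial genes gave 6 neutral lipid hydrolases and 2 regulators lower, with 525 genes lower over all. No filter on low counts gave 5 neutral lipid hydrolases lower and 1 other ester hydrolase higher, with 311 genes lower and 442 higher over all. Of all 10960 tested genes, 1596 had an unadjusted p under 0.05 in either direction, and edgeR called 1.04% lower and 1.72% higher.

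Genes of the steps before and after ester hydrolysis are set beside 1.72% called higher and 1.04% called lower over all tested genes. Their counts at an unadjusted p under 0.05 are set beside 1596 of all 10960 genes in either direction. Of 23 triglyceride synthesis and chylomicron genes 1 rose and 1 fell, with a median of -0.03. At an unadjusted p under 0.05, 4 were higher and 5 lower, and DESeq2 called 3 higher and 1 lower. Without mouse 1119, without mouse 1199 or without the mouse block, 0 of them were called in either direction. Scaling to epithelial genes gave 0 higher and 4 lower. Dgat2, which makes triacylglycerol from diacylglycerol, had 175.2, 155.9 and 195.7 CPM in polyps and 79.4, 69.9 and 125.8 CPM in surrounding tissue, without overlap (log2 fold change 0.98 ± 0.16, adjusted p = 0.0174). Fabp2, the intestinal fatty acid binding protein, had 86.3, 132.8 and 146.6 CPM in polyps and 216.6, 183.3 and 523.8 CPM in surrounding tissue, also without overlap (-1.21 ± 0.24, adjusted p = 0.0395). Of 27 drug conjugation and efflux genes 1 rose and 1 fell by edgeR, with a median of -0.66 and 21 of the 27 below 0. At an unadjusted p under 0.05, 3 were higher and 9 lower; DESeq2 called 2 higher and 6 lower, limma-voom 1 higher and 3 lower, and scaling to epithelial genes gave 1 higher and 9 lower. Restricting to a mean of at least 5 CPM gave 1 higher and 6 lower, as did leaving out mouse 1192, and without mouse 1119 or mouse 1199 edgeR called 0 in either direction. The efflux transporter gene Abcc4 had 25.5, 27.2 and 17.4 CPM in polyps and 7.01, 5.48 and 6.09 CPM in surrounding tissue, all polyps being higher (1.92 ± 0.28, adjusted p = 0.0153). The sulfotransferase gene Sult1a1 had 2.06, 17.4 and 3.41 CPM in polyps and 12.2, 42.3 and 15.3 CPM in surrounding tissue, where mouse 1192 was again highest in both (-1.93 ± 0.32, adjusted p = 0.0194).

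**Figure D5:**
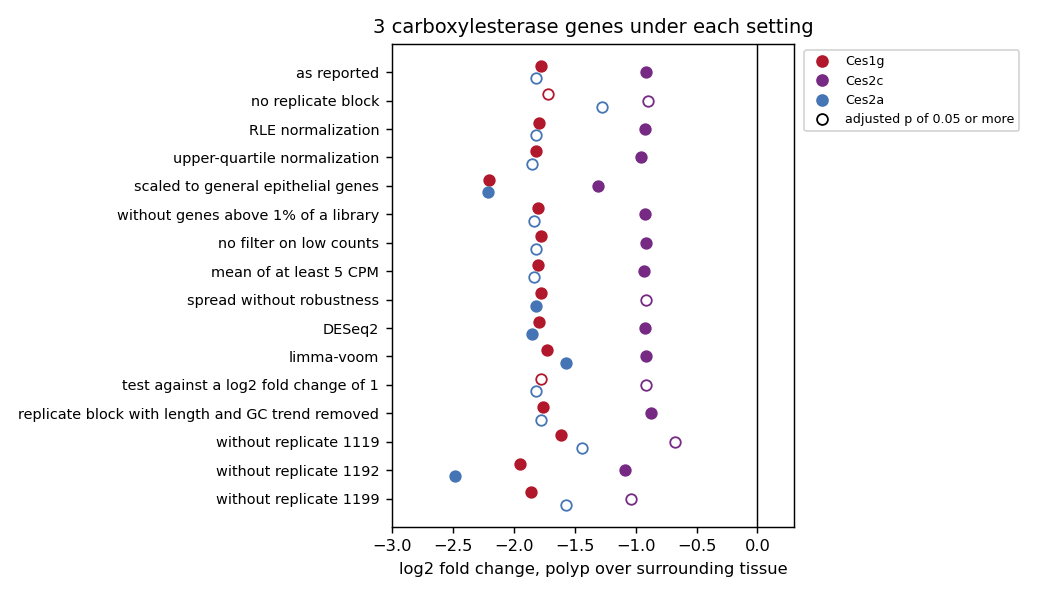
Log2 fold change, polyp over surrounding tissue, of Ces1g, Ces2c and Ces2a under the reported setting and 15 alternatives; filled circles have an adjusted p under 0.05. Ces1g is filled under 13 of the 15 alternatives, Ces2c under 10 and Ces2a under 5, and every circle lies below 0.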

How the data were processed

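Per the labels' protocols, RNA was treated with a MICROBEnrich kit, which removes mammalian RNA, and with a bacterial ribosomal RNA removal kit before paired-end libraries were made. The mouse counts probably stem from the treated RNA, but the labels leave this uncertain. The authors deposited raw counts per Ensembl gene, 1 table per sample, without normalization as judged from the values. Per the submitters' processing notes, HTSeq 0.5.3p9, Bowtie 0.12.9 and TopHat2 2.0.7 were used; build, annotation and strand setting were not given in the sources here. GENCODE M21 named 32938 identifiers and gave exon lengths; no member's exons overlap another gene there. Promoter coordinates are RefSeq's own (GRCm38.p6), not the files'.

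The test was that of edgeR 4.0.16 (R 4.3.3; quasi-likelihood, robust, TMM, filterByExpr with a minimum count of 10, two-sided, Benjamini-Hochberg under 0.05), with the mouse as a block because both tissues of a pair came from 1 animal. Deviations from the tissue means correlated at 0.0719, 0.127 and 0.159 within mice 1119, 1192 and 1199. Between polyp and surrounding tissue of different mice they correlated at -0.12 to -0.00294. The spread left after mouse and tissue were fitted was 34.3% (common biological coefficient of variation), with 2 residual degrees of freedom. The procedure was tested on simulated data. Replicates of a tissue differed by 21.4 to 77.2 times the chi-square that sampling noise gives. The 15 alternatives were DESeq2 1.42.0, limma-voom (limma 3.58.1), no block, RLE or upper-quartile normalization, scaling to epithelial genes, dropping genes above 1% of a library, no filter, a mean of at least 5 CPM, spread without robustness, testing against a log2 change of 1, removal of length and GC trends, and leaving out each mouse. Tables used Python 3.11.15 and SciPy 1.17.1.

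Named genes were the 10 members, other family genes with counts, called genes of each list (up to 4), the 3 genes most correlated with each called member (mean log2 CPM of at least 3), and Gusb; the 4 family genes without counts and some marker genes were named in addition. Of the genes that this rule selects, 2 are left out of the text. The members and lists were chosen with earlier results of these data known.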

Additional observations from a re-analysis of the deposited data

How the results depend on the processing

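Over 15 alternatives (14 for Ces1e and Ces2b), 118 of 133 log2 fold changes of members kept their direction and their side of the threshold, 7 lost a call, 7 gained one and 1 changed sign (Ces2g, -0.26 when scaled to epithelial genes). Among all genes, 189 were called higher and 114 lower as reported. The number of members called lower, 2 as reported, was 0 without the replicate block (51 genes higher and 36 lower over all), that is, when the pairing by animal was ignored. It was 5 when scaled to epithelial genes (107 higher, 525 lower) and 0 against a log2 fold change of 1 (1 higher, 2 lower, a stricter question). Leaving out 1 mouse gave 1 to 3 members lower, with 45 to 153 genes higher and 21 to 128 lower over all: 1 member without mouse 1119, 3 without 1192 and 1 without 1199, with 1 residual degree of freedom fewer. Over all genes, no filter on low counts gave 442 higher and 311 lower, a mean of at least 5 CPM 178 lower, and DESeq2 326 higher and 215 lower. Except where stated, the cause was not tested. Members called higher stayed at 0 under all 15. Ces1e rested on 50 counts in polyps and 61 in surrounding tissue and Ces2b on 94 and 138, and their intervals include changes in either direction.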
